A study of Mus musculus with 22 samples.

Results

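The mitochondrial respiratory chain is assembled from proteins of 2 genomes, and the genes described here are those of the nuclear genome. They were chosen by symbol alone: protein-coding genes whose names begin with Nduf, Sdha, Sdhb, Sdhc, Sdhd, Uqcr, Uqcc, Cox4, Cox5, Cox6, Cox7, Cox8 or Atp5. Of 114 annotated genes with such a name, 13 were not protein-coding and 1 was absent from the count tables, which left 100 of the 47729 genes counted. By role, 7 encode core subunits of complex I, 29 its accessory subunits, 4 complex II, 8 complex III, 12 complex IV and 17 ATP synthase. A further 15 are assembly factors and 8 are isoforms named for other tissues. Cox6b2, Cox7b2 and Cox8c are known from testis, Cox6a2, Cox7a1 and Cox8b from muscle, Cox4i2 from lung, and Ndufa4l2 as a gene induced by low oxygen. The RNA was poly(A) RNA from whole livers of male C57BL/6 mice, either wild type (WT) or knockout (KO) for Slc10a1. That gene encodes NTCP, the sodium-coupled carrier through which hepatocytes take up conjugated bile acids. The 6 groups were WT and KO mice of 4 weeks (3 and 3), 8 weeks (4 and 6) and 20 months (3 and 3), with no treatment named. The labels do not say whether mice shared a litter or cage, so p-values measure the spread between these samples only.

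Complex I (NADH dehydrogenase) and complex II (succinate dehydrogenase) pass electrons to coenzyme Q, complex III passes them on to cytochrome c, and complex IV (cytochrome c oxidase) passes them to oxygen. The protons pumped along the way drive ATP synthase. Hepatocytes rely on the chain for gluconeogenesis, urea synthesis and fatty acid oxidation, and the nuclear genes of its subunits are textbook targets of the transcription factors NRF1, NRF2 (GABP) and the ERR family with the coactivator PGC-1alpha.

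Counts assigned to genes ranged from 5496425 to 6956124 per library at 4 weeks, from 18950112 to 26066897 at 8 weeks and from 18032355 to 26789350 at 20 months, and the 100 genes took 0.68% to 1.79% of them. Reads were paired at 4 weeks and single at the later ages, so a difference between 4 weeks and a later age cannot be told apart from library layout. Slc10a1 RNA was lower in the KO libraries than in the WT libraries of every age with no overlap: 111.5 to 264 against 604.4 to 710.3 CPM (counts scaled to the size of the library) at 4 weeks, 49.2 to 93.33 against 431.7 to 464.1 at 8 weeks, and 90.51 to 102.8 against 151.5 to 365.0 at 20 months. Only the first 2 of these comparisons passed edgeR's quasi-likelihood test with Benjamini-Hochberg adjustment over all genes (adjusted p = 0.0117, 9e-05 and 0.821). The 8-week KO libraries 1, 2, 5 and 6 had a summed level of 10 hepatocyte markers of 149100 to 199900 CPM, against 71010 to 90210 in the other 6 libraries of that age. Their macrophage marker sums were higher as well, at 676.1 to 850.5 against 310.5 to 471.5 CPM. So were their stellate cell sums (638.2 to 750.9 against 317.1 to 493.1) and endothelial sums (444.7 to 635.3 against 373.5 to 414.3). Neutrophil, lymphocyte and cholangiocyte sums overlapped between these libraries and the others. In bulk liver, fewer cells of a type and less RNA per cell cannot be told apart.

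Per kilobase of exon, the most abundant of the 100 genes was Atp5a1, the alpha subunit in the soluble part of ATP synthase, with a mean over the 22 libraries of 335.2 CPM per kilobase. Cox6a1, a complex IV subunit, followed at 333.8, and Atp5b, the catalytic beta subunit, at 287.2. Assembly factors lay far lower than these on the same scale, from 33.4 for Uqcc3 to 1.58 for Sdhaf1. Some subunit genes, such as Atp5g1 and Atp5g2 of ATP synthase, lay within or below that range. These lengths join the exons of all annotated transcripts, so a gene with long rare transcripts, such as Atp5l, is placed too low.

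At 4 weeks, 3 of the 93 genes tested differed between KO and WT. The threshold was an adjusted p under 0.05 by edgeR's quasi-likelihood test, with Benjamini-Hochberg adjustment over all 11144 genes tested. Ndufaf4 and Atp5s rose and Cox6b2 fell. Over all genes tested, 5.17% were called higher and 5.6% lower, so the count among respiratory chain genes was below the background in both directions. At an unadjusted p under 0.05 the share was 9.68% (9 of 93), against 29.1% of all genes. The median log2 fold change over the 93 genes was 0.09, beside 0.01 over all genes, with a median standard error of 0.25, and 78 of the 93 estimates lay within 0.5 of 0. Markers of other liver cells moved in the same comparison. Of 7 endothelial markers 3 fell, with a summed level of 309.2 to 366.6 CPM in WT and 196.5 to 267.6 CPM in KO livers. Of 8 macrophage markers 3 fell and 1 rose (597.9 to 706.6 against 333.8 to 605.9 CPM), and of 7 stellate cell markers 2 fell and 1 rose (267.0 to 349.6 against 350.9 to 492.3 CPM). The 7 lymphocyte markers, too low to be tested, summed to 4.98 to 6.76 CPM in WT and 1.89 to 2.88 CPM in KO livers. No marker of these lists was at 0 throughout a 4-week group, and their part in the values of the respiratory chain genes was not tested.

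Ndufaf4 encodes an assembly factor of complex I and lies at chr4:24898083-24905001 on the plus strand of GRCm38. Its level was 57.7, 75.58 and 66.19 CPM in the WT libraries and 113.9, 136.6 and 180.7 CPM in the KO libraries at 4 weeks. Every KO library was above every WT library. The log2 fold change was 1.12 ± 0.22 (SE; 3 against 3; edgeR adjusted p = 0.0196). At the later ages its levels overlapped between genotypes, with means of 45.6 ± 5.8 CPM (SD, n = 4) in WT and 47.0 ± 10.1 (n = 6) in KO livers at 8 weeks, and 35.7 ± 10.5 and 37.0 ± 10.9 (n = 3 each) at 20 months.

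Atp5s, at chr12:69724950-69744660 on the plus strand, encodes coupling factor B, a protein associated with ATP synthase. Its level at 4 weeks was 10.66, 9.25 and 6.43 CPM in WT and 18.12, 21.16 and 19.71 CPM in KO livers. The groups did not overlap, and the log2 fold change was 1.17 ± 0.25 (SE; edgeR adjusted p = 0.0229). At 20 months the KO livers had 4.52 ± 1.00 CPM and the WT livers 5.05 ± 0.39 CPM (SD, n = 3 each), and the groups overlapped.

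Cox6b2, at chr7:4751792-4753094 on the minus strand, encodes the testis form of a complex IV subunit and was rare in these livers. Its counts at 4 weeks were 28, 22 and 24 in the WT libraries (5.33, 3.91 and 3.86 CPM) and 0, 5 and 6 in the KO libraries (0, 1.05 and 1.33 CPM). All KO libraries were below all WT libraries, with a log2 fold change of -2.50 ± 0.66 (SE; edgeR adjusted p = 0.0448). All 6 germ cell markers examined (Prm1, Prm2, Tnp1, Tnp2, Ldhc and Odf1) were at 0 counts in all libraries of 4 weeks. The liver form Cox6b1 had a log2 fold change of 0.08 ± 0.24 in the same comparison. At 20 months Cox6b2 was at 3.67, 0.92 and 0.22 CPM in WT and 0.61, 0.26 and 0.38 CPM in KO livers, with no call. The highest value, in the first WT library, came from 108 counts. That library also carried 3535 CPM of 8 neutrophil markers and 191.5 CPM of 6 cholangiocyte markers, the highest sums of that age. Their part in the Cox6b2 values was not tested.

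**Figure D1:**
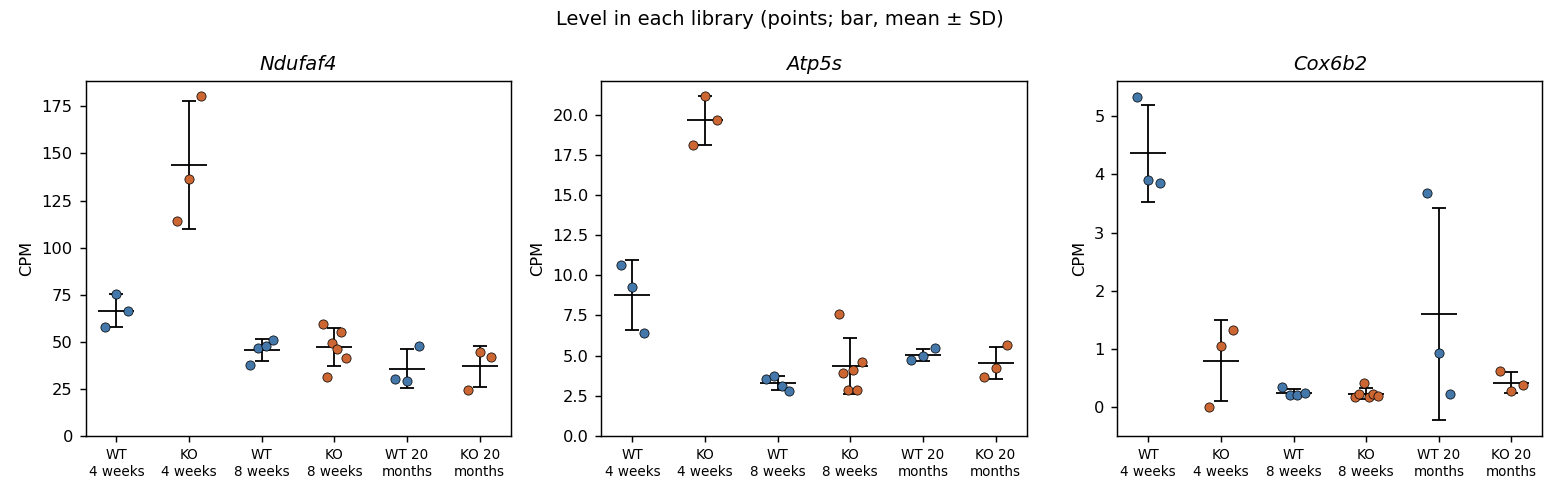
CPM of Ndufaf4, Atp5s and Cox6b2 in each of the 22 libraries (points) by genotype and age, with the mean ± SD of each group (bars). At 4 weeks the 3 KO libraries lie outside the range of the 3 WT libraries for each gene, and at 8 weeks and 20 months the genotypes overlap.

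These 3 calls rested on few libraries, although DESeq2 made the same 3. With the third WT library left out none of the 3 passed, and the same held without the second WT library or without the third KO library. Ndufaf4 then had an adjusted p of 0.1, 0.0755 and 0.0577, Atp5s of 0.101, 0.097 and 0.0616, and Cox6b2 of 0.139, 0.13 and 0.0759. Without the first WT library, Ndufaf4 and Cox6b2 did not pass (0.0637 and 0.106), and without the second KO library Cox6b2 did not. Each kept its direction in all 6 fits that left out 1 library.

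The first KO library of 4 weeks stood apart from the other 5. It was the lowest of the 6 for 62 of the 96 genes scored. Without it, 16 of 94 genes passed as higher and 1 as lower by edgeR with Benjamini-Hochberg adjustment, against 9.14% and 8.44% of all genes, and the median log2 fold change moved from 0.09 to 0.31. The 16 comprised 7 of 17 ATP synthase genes, 3 of 8 complex III genes, 2 of 12 complex IV genes, 2 of 29 accessory and none of 7 core genes of complex I, Sdhb of complex II and the assembly factor Ndufaf4. Cox7b, a complex IV subunit, gives an example. Its level was 304.3, 363.5 and 364.7 CPM in WT livers and 321.1, 603.4 and 648.1 CPM in KO livers, the first KO library falling within the WT range. Its log2 fold change was 0.61 ± 0.29 with all libraries (edgeR adjusted p = 0.195) and 0.88 ± 0.17 without the first KO library (adjusted p = 0.0118). Sdhb, the iron-sulfur subunit of complex II, went from 0.59 ± 0.26 to 0.83 ± 0.17. In that library 9.65% of reads fell outside genes, against 6.13% to 7.87% in the other 5, and the summed level of 10 hepatocyte markers was 82630 CPM against 145300 to 209600. Their part in the result was not tested. The third KO library stood apart on the other side: it was the highest of the 6 for 52 of the 96 genes and the lowest for none. Without it no gene passed in either direction, against 1.81% of all genes higher and 1.92% lower, and the median was -0.082.

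By role, the median log2 fold change at 4 weeks was 0.21 for complex IV (11 of 12 estimates above 0), 0.20 for ATP synthase (12 of 17) and complex III (6 of 8), 0.16 for core subunits of complex I (4 of 7), 0.05 for complex II (2 of 4), 0.04 for accessory subunits of complex I (16 of 29) and -0.15 for assembly factors (5 of 15). None of these counts stands for calls, which were 1 each for ATP synthase and assembly factors. Among a panel of 14 such genes spread over the complexes, the log2 fold change ran from -0.26 for Sdha, the flavoprotein subunit of complex II, to 0.59 for Sdhb, and none passed. Ndufa1, an accessory subunit of complex I, had the next smallest p after the 3 called genes. It stood at 117.9, 136.0 and 159.7 CPM in WT and 60.8, 79.8 and 118.5 CPM in KO livers, which overlapped by 1 library, with a log2 fold change of -0.67 ± 0.26 (edgeR adjusted p = 0.13). After correction for exon length, an alternative chosen after the data were seen, Ndufa1 passed as lower (edgeR adjusted p = 0.0233); under it 2 of these genes were higher and 2 lower, against 5.87% and 5.54% of all genes.

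At 8 weeks none of the 94 genes tested passed in either direction, by edgeR or by DESeq2. Over all genes 0.00689% were called higher and 0.0207% lower by edgeR, so few calls were made anywhere. At an unadjusted p under 0.05 there was 1 gene of the 94, which is 1.06% against 10.4% of all genes. The estimates were narrow: 92 of 94 lay within 0.5 of 0 on the log2 scale, the middle 80% between -0.16 and 0.08, and the median was -0.03 with a median standard error of 0.10. Ndufaf5, an assembly factor that modifies a complex I core subunit, had the smallest p. Its level was 3.20, 3.73, 3.98 and 2.88 CPM in WT livers and ran from 2.21 to 2.91 CPM in the 6 KO livers (mean 2.68 ± 0.28, SD), so the groups overlapped. The log2 fold change was -0.35 ± 0.15 (edgeR adjusted p = 0.474). Ndufa4l2 (0.78 ± 0.35), Ndufa7 of complex I (0.19 ± 0.10) and Cox7a1 (-0.55 ± 0.30) followed. By role the medians lay between -0.12 for assembly factors and 0.03 for complex II, and all 7 core subunits of complex I had estimates below 0, with a median of -0.03. Over the panel of 14 subunit genes the log2 fold change ran from -0.11 for Ndufb8 to 0.09 for Cox5a.

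At 20 months none of the 95 genes tested passed by edgeR or DESeq2, and edgeR called 0% of all genes. At an unadjusted p under 0.05 there was again 1 gene, 1.05% of those tested against 5.53% of all genes. The median log2 fold change was 0.13, and 71 of the 95 estimates were above 0, with a median standard error of 0.27. The sign of that median rested on single libraries: it was -0.052 without the first WT library, 0.015 and 0.030 without the second and the third KO library, 0.27 without the first KO library and 0.35 without the third WT library. Accessory subunits of complex I had a median of 0.16 (25 of 29 above 0), complex II of 0.24, ATP synthase of 0.11 (14 of 17) and assembly factors of 0.03 (9 of 15). Uqcc2, an assembly factor for cytochrome b of complex III, had the smallest p. Its level was 17.2, 18.5 and 20.2 CPM in WT and 25.0, 25.5 and 24.2 CPM in KO livers. All KO libraries exceeded all WT libraries, but the difference of 0.42 ± 0.14 (log2) did not pass (edgeR adjusted p = 0.821). At 4 weeks the same gene stood at 9.9, 17.8 and 24.1 CPM in WT and 8.9, 9.8 and 13.1 CPM in KO livers. Cox6b2 (-1.97 ± 0.93), Ndufa4l2 (-0.75 ± 0.39) and Sdhaf1, an assembly factor of complex II (-0.45 ± 0.24), came next.

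**Figure D2:**
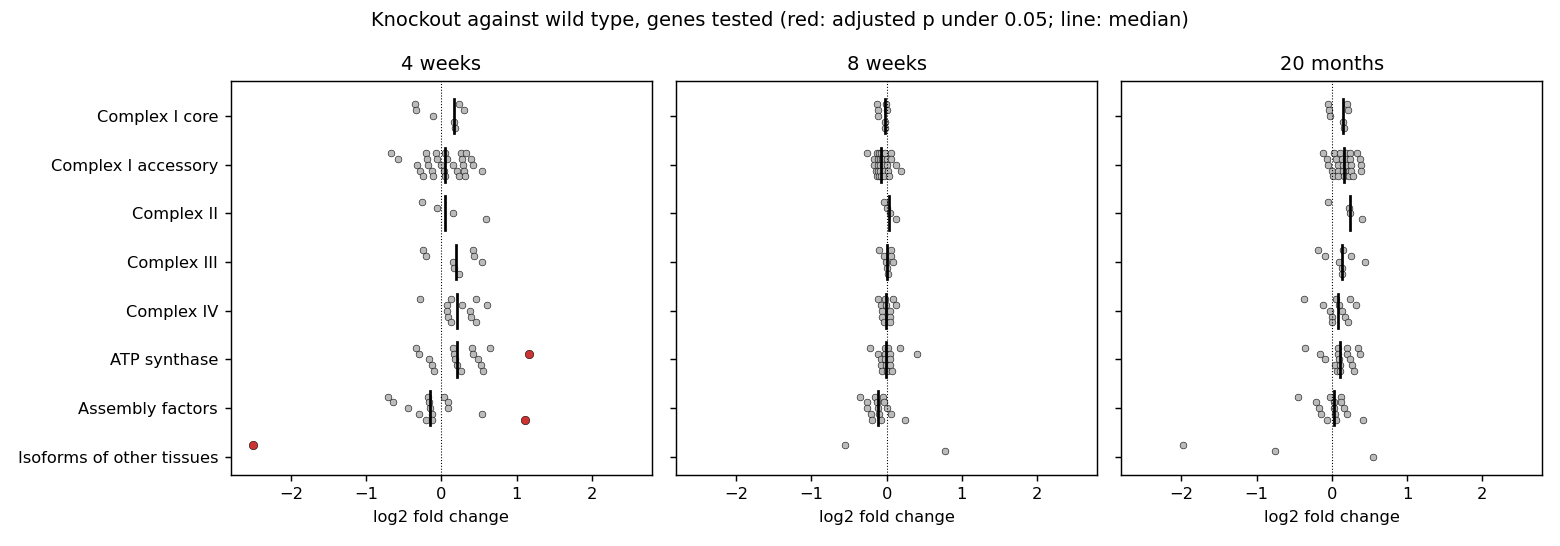
Log2 fold change of KO against WT (horizontal axis) for each gene tested at 4 weeks, 8 weeks and 20 months, by role. Red points passed an adjusted p under 0.05 and vertical lines mark medians of roles with at least 4 genes. The points are tightest at 8 weeks, and 3 red points appear at 4 weeks only.

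Whether the KO effect differed between ages was tested in 1 fit of all libraries with 96 of the genes. None passed by edgeR for 8 weeks against 4 weeks (0.328% of all genes called), 20 months against 4 weeks (4.52%) or 20 months against 8 weeks (0%). At an unadjusted p under 0.05 there were 4, 9 and 1 genes (4.17%, 9.38% and 1.04%), against 14.1%, 22.3% and 11.3% of all genes. DESeq2 called Ndufaf4 for 8 weeks against 4 weeks (-1.12 on the log2 scale), where it called 3.01% of all genes. For 20 months against 4 weeks it called Ndufaf4 (-1.11), Atp5s (-1.37) and Cox7a2l (-0.87) in the lower direction and Uqcc2 (1.09) and Ndufa3 (0.87) in the higher, 5 of the 96 genes where it called 10.7% of all genes. These were named after their values were seen. In edgeR the Ndufaf4 difference was -1.07 ± 0.32 (adjusted p = 0.138) and -1.06 ± 0.36 (adjusted p = 0.0872). The 2 contrasts with 4 weeks share the 4-week libraries.

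The mean log2 CPM over the 96 genes gave 1 score per library, reported here without a test. At 4 weeks it was 6.20, 6.27 and 6.34 in WT and 5.83, 6.34 and 6.64 in KO livers, so the KO livers spread over 0.81 and the WT livers over 0.14. At 8 weeks it was 5.08, 5.16, 5.19 and 5.13 in WT livers and ran from 4.91 to 5.30 in KO livers, which enclosed the WT range. At 20 months it was 5.70, 6.06 and 6.42 in WT and 5.81, 6.36 and 6.33 in KO livers. The genotypes overlapped at each age, and the spread at 20 months was of like size in both. The first WT library of 20 months was the lowest of the 6 for 59 of 96 genes, and the first KO library for 32. The first WT library also carried 3535 CPM of 8 neutrophil markers, against 429.5 in the second WT library and 6.8 to 16.4 in the other 4. In the first KO library 14.7% of reads fell outside genes, against 7.0% to 8.5% in the others. Their part in the scores was not tested.

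Most of these genes moved together from library to library within groups. After the group means were removed, 86 of the 96 genes had a correlation above 0.5 with the mean of the others over the 22 libraries, with a median of 0.84. The share of all genes above 0.5 is not given here, so this count has no background beside it. Groups with a wide spread between libraries weigh most in such a correlation. Ndufs3, a core subunit of complex I, had the highest at 0.97. Cox6b2 (-0.04), Uqcc3 (0.04), Ndufa4l2 (0.07) and Atp5s (0.09) were the lowest. Among 15781 other genes, those closest to the score were Prdx2 (Pearson r = 0.964), Chchd3 (0.95), Mdh1 (0.942), Acadvl (0.936) and Supv3l1 (0.929). Values of 1 library share its depth, scaling and cell makeup, and no p is given. The median SD within a group over the 96 genes was 0.17 for WT and 0.41 for KO livers at 4 weeks, 0.08 and 0.19 at 8 weeks, and 0.41 and 0.34 at 20 months, on the log2 scale. Over all 15877 genes it was 0.29 and 0.42, 0.17 and 0.37, and 0.34 and 0.29.

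The 13 respiratory chain genes of the mitochondrial genome, which supply the remaining subunits, had higher estimates than the nuclear genes. Their median log2 fold change was 0.42 at 4 weeks, 0.40 at 8 weeks (11 genes tested) and 0.43 at 20 months, beside 0.09, -0.03 and 0.13 for the nuclear genes. By gene, 13 of 13, 10 of 11 and 13 of 13 estimates were above 0, but only mt-Nd6 passed, at 4 weeks (1.14 ± 0.28, SE; edgeR adjusted p = 0.0402), and it no longer passed with scaling by library totals (adjusted p = 0.0517), nor without any 1 of the WT libraries or the third KO library (0.0858 to 0.171). mt-Nd6 had 1530, 1554 and 1322 CPM in WT and 3949, 2231 and 3497 CPM in KO livers of that age. The mean log2 CPM of the mitochondrial genes minus that of the nuclear genes was 3.43, 3.24 and 2.88 in WT and 3.69, 3.68 and 3.54 in KO livers at 4 weeks. At 8 weeks it was 2.23, 2.06, 2.27 and 2.13 in WT livers, and 2.33 at the lowest, 2.41 at the median and 2.98 at the highest in KO livers. At 20 months it was 1.66, 1.75 and 1.91 in WT and 2.59, 1.98 and 1.94 in KO livers. The genotypes did not overlap at any of the 3 ages, with no test made. Without mt-Nd5 and mt-Nd6, which lie on opposite strands and whose reads an unstranded count can mix, the highest WT library met the lowest KO library at 4 weeks (3.10 each), the ranges overlapped at 8 weeks (1.25 to 1.51 and 1.49 to 2.09), and they overlapped at 20 months (1.04 to 1.37 and 1.34 to 1.91). That variant was chosen after the values were seen. The 20-month KO library with the highest difference was the one with 14.7% of reads outside genes, and the part of those reads was not tested.

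**Figure D3:**
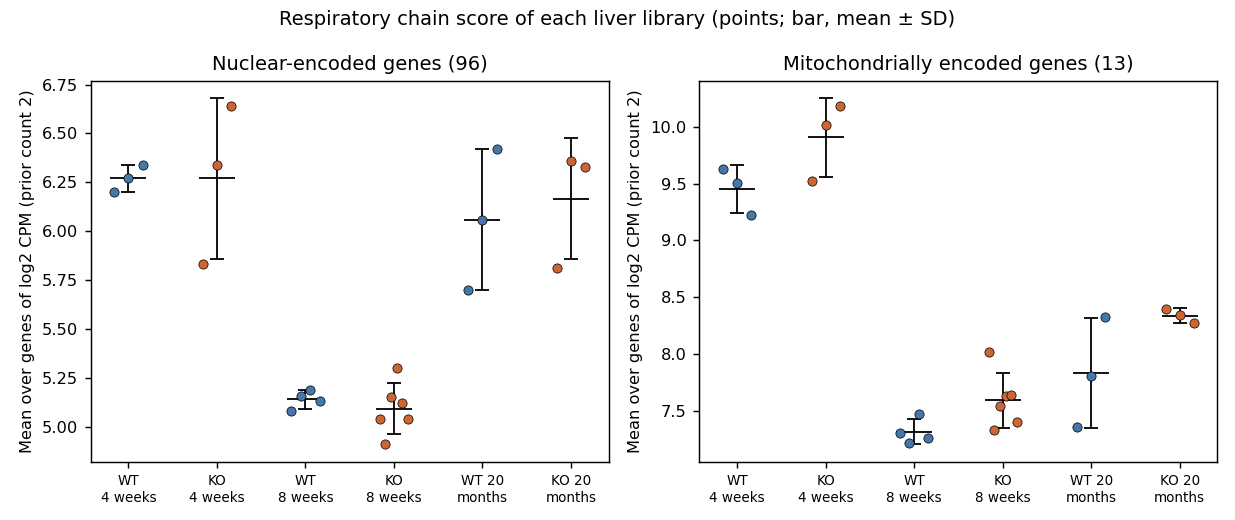
Mean log2 CPM over 96 nuclear genes (left) and 13 mitochondrially encoded genes (right) of the respiratory chain in each library (points), with the mean ± SD of each group (bars). The 8-week libraries are the lowest on the left panel, between 4.91 and 5.30, and the KO and WT points overlap at each age on both panels.

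Genes around the chain gave calls between KO and WT at 4 weeks, where 5.17% of all genes were called higher and 5.6% lower. There 3 of 15 regulators of mitochondrial biogenesis rose (20%) and none fell. Ppargc1a, which encodes PGC-1alpha, was at 43.2, 48.2 and 40.0 CPM in WT and 107.5, 143.9 and 146.8 CPM in KO livers (log2 fold change 1.60 ± 0.20; edgeR adjusted p = 0.00366). It no longer passed in 1 fit of all 22 libraries (adjusted p = 0.154). At 8 weeks the 6 KO livers lay on both sides of the WT livers for Ppargc1a, from 10.99 to 213.3 CPM against 21.6 to 33.1. The 4 libraries above the WT range were those with the high hepatocyte, macrophage, stellate cell and endothelial marker sums. Myc, a growth regulator, rose at 4 weeks as well (2.11 ± 0.40; edgeR adjusted p = 0.0169, or 0.115 in 1 fit of all libraries). Of 11 inner membrane carriers and related genes 2 rose (18.2%), led by Slc25a4, an ADP/ATP carrier (2.60 ± 0.36), which stood at 11.8, 14.9 and 15.4 CPM in WT and 42.5, 108.3 and 105.6 CPM in KO livers. Of 30 assembly factors outside the symbol rule 2 rose, Coa6 among them (0.93 ± 0.22), and Coa3 fell (-0.83 ± 0.19); both serve complex IV. In the citric acid cycle list Idh3a rose (1.30 ± 0.30) and Pcx fell (-1.07 ± 0.28) among 18 tested. Of 13 coenzyme Q genes 2 rose (15.4%), Pdss1 (1.16 ± 0.30) and Coq7 (0.85 ± 0.21), and of 12 mitochondrial stress genes Atf4 rose (1.00 ± 0.23). None of 7 cytochrome c and electron entry genes passed. Among mitochondrial ribosomal proteins 1 rose and 2 fell of 76, and among cytosolic ribosomal proteins 13 rose of 77 (16.9%), with 76 of the 77 estimates above 0 and a median of 0.54. By edgeR the adjusted p was 0.0448 for Pcx, 0.0445 for Pdss1, 0.0412 for Coq7, 0.0339 for Coa6 and 0.0303 for Idh3a. It was 0.0294 for Atf4, 0.0285 for Coa3 and 0.0057 for Slc25a4. Over all genes the 4-week calls went from 576 higher and 624 lower to 65 and 119 without the third WT library. Without the second WT library they were 85 and 149. For the genes of these lists, fits without 1 library are not given here. At 8 weeks and 20 months no gene of these lists passed by edgeR, and at an unadjusted p under 0.05 each list held 0 to 4 genes at 8 weeks and 0 to 2 at 20 months. DESeq2 called 1 of them, Gdf15 of the stress list, as higher at 8 weeks and none at 20 months.

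In WT livers many respiratory chain genes differed between ages. From 4 to 8 weeks 80 of 95 genes tested fell and none rose by edgeR with Benjamini-Hochberg adjustment, against 25.7% of all genes lower and 27.5% higher. The median log2 fold change was -1.13 over these genes and 0.04 over all genes. From 8 weeks to 20 months 69 of 94 rose and none fell, against 27.7% of all genes higher and 26.8% lower, with a median of 0.97 beside 0.07. Both comparisons share the 8-week WT libraries, and 61 genes both fell and then rose. The first comparison sets paired-end against single-end libraries. By the file names the 8-week libraries also form a set apart, while those of 4 weeks and 20 months share another set. In the 8-week WT libraries 15.4% to 17.8% of reads fell outside genes, against 6.1% to 8.5% in the other WT libraries. Age and library set therefore cannot be told apart.

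Atp5l, which encodes a membrane subunit of ATP synthase, had the smallest adjusted p of the fall. It stood at 134.1, 142.1 and 157.8 CPM at 4 weeks and 24.3, 25.8, 27.8 and 26.9 CPM at 8 weeks (log2 fold change -2.45 ± 0.09; adjusted p = 1.78e-07). Cox5b of complex IV went from 221.1, 211.6 and 221.9 CPM to between 52.0 and 56.3 CPM (-1.996 ± 0.081). Ndufa5, an accessory subunit of complex I, went from 184.5, 152.9 and 176.7 CPM to between 28.4 and 34.7 CPM (-2.40 ± 0.10). In each the age groups stood clear of one another. The smallest adjusted p of the 20-month rise was that of Uqcc3, an assembly factor of complex III, which went from between 9.22 and 10.4 CPM to 51.5, 53.5 and 58.7 CPM (2.45 ± 0.09; adjusted p = 9.8e-06). Ndufa3, an accessory subunit of complex I, reached 110.5, 118.5 and 137.6 CPM from at most 34.1 CPM (1.94 ± 0.11). Ndufc2, another accessory subunit, reached 138.3, 156.3 and 193.3 CPM from at most 44.9 CPM (1.89 ± 0.13). Ndufa3 shares bases with Tfpt on the opposite strand, and an unstranded count cannot separate such reads. Ndufc2 shares bases with the pseudogene Gm16053 on its own strand, where a stranded count cannot separate them either.

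The roles differed in size of change. From 4 to 8 weeks the median log2 fold change was -1.34 for complex IV (11 of 12 fell), -1.32 for accessory subunits of complex I (27 of 29), -1.20 for complex III (7 of 8) and -1.14 for ATP synthase (17 of 17). It was -0.66 for core subunits of complex I (7 of 7), -0.53 for assembly factors (8 of 15) and -0.29 for complex II (2 of 4). From 8 weeks to 20 months it was 1.16 for both complex IV (10 of 12 rose) and accessory subunits (27 of 29), 1.00 for complex III (6 of 8), 0.71 for assembly factors (9 of 15), 0.66 for ATP synthase (11 of 17), 0.33 for core subunits (2 of 7) and 0.22 for complex II (2 of 4). Subunits of the named panel ranged from small to large changes. Atp5b had -0.70 ± 0.10 and -0.09 ± 0.28 in the 2 comparisons, Ndufs1, the largest core subunit of complex I, -0.51 ± 0.09 and -0.26 ± 0.24, and Sdha -0.16 ± 0.10 and -0.17 ± 0.26, whereas Uqcrfs1, the iron-sulfur subunit of complex III, had -1.05 ± 0.09 and 0.97 ± 0.14. Cox5a, a complex IV subunit, had 0.11 ± 0.11 and 0.20 ± 0.12 and passed in neither.

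**Figure D4:**
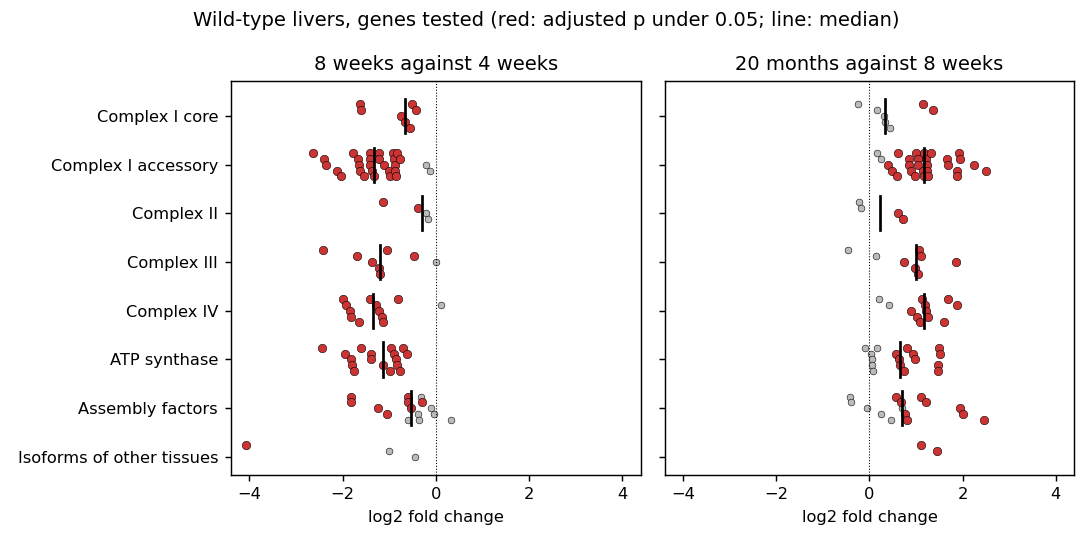
Log2 fold change in WT livers (horizontal axis) for each gene tested, by role, for 8 weeks against 4 weeks and 20 months against 8 weeks. Red points passed an adjusted p under 0.05 and vertical lines mark medians. Of the genes tested, 80 fell in the first comparison and 69 rose in the second.

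Part of this pattern was shared with short genes in general. Over all genes, the 20% with the shortest exons had a median log2 fold change of -0.54 from 4 to 8 weeks and the 20% with the longest 0.60, and from 8 weeks to 20 months the medians were 0.70 and -0.61. Of the 95 respiratory chain genes tested in the first comparison 65 were in that shortest class, with a median exon length of 1718 bases over the 95 genes against 4219 over all genes. These 65 had a median of -1.21 and the other 30 of -0.66, and in the second comparison the 64 short genes had 1.04 and the other 30 had 0.58. With offsets that removed the dependence on length, chosen after the data were seen, 63 genes fell and 2 rose from 4 to 8 weeks (median -0.56), against 23.9% of all genes lower and 21.8% higher. From 8 weeks to 20 months 38 rose and 4 fell (median 0.29), against 24.2% and 22.2%. The 2 that rose were Cox5a and Ndufaf5, and the 4 that fell were Ndufa11, Atp5d, Sdhaf4 and Ndufs5, all named after their values were seen. Under these offsets the median was -0.75 and 0.75 for accessory subunits of complex I, -0.57 and 0.45 for complex IV, and -0.69 and 0.15 for ATP synthase in the 2 comparisons. Scaling by library totals moved the median of all genes in the first comparison from 0.04 to 0.29, with 38.1% of all genes higher and 17.6% lower, and gave 73 respiratory chain genes lower and 1 higher. Without the third WT library of 20 months the second gave 66 higher and 5 lower, against 29.7% and 28.6% of all genes, with a median of 0.69; the 5 were Uqcc1, Sdha, Uqcrc1, Ndufs1 and Ndufaf4.

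**Figure D5:**
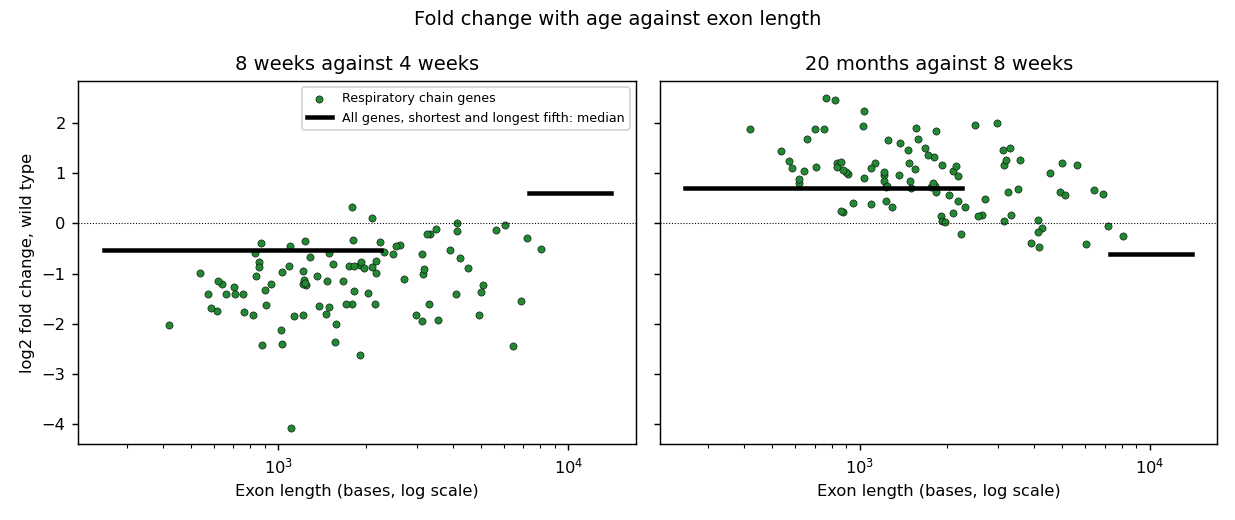
Log2 fold change in WT livers against exon length (log scale) for each respiratory chain gene tested (points), with the median of all genes in the shortest and in the longest 20% (black bars). The bars for all genes lie at -0.54 and 0.60 on the left and 0.70 and -0.61 on the right.

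Ribosomal protein genes, which are also short, fell with the respiratory chain genes from 4 to 8 weeks. The mitochondrial ones also rose with them afterwards, while the cytosolic ones moved both ways. In the first comparison 78 of 79 cytosolic and 67 of 76 mitochondrial ribosomal protein genes fell, against 25.7% of all genes. From 8 weeks to 20 months 60 of 77 mitochondrial ones rose. Of 78 cytosolic ones 40 rose and 16 fell, against 27.7% of all genes higher and 26.8% lower. Cycs, the gene of cytochrome c itself, fell from 126.6, 97.5 and 84.8 CPM at 4 weeks to between 23.2 and 24.0 CPM at 8 weeks (-2.11 ± 0.13), and was at 19.7, 20.9 and 30.7 CPM at 20 months.

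The isoforms of other tissues stayed rare. Cox7b2 and Cox8c had no count in any of the 22 libraries, where 3 counts, the limit that a count of 0 allows for counting error, correspond to between 0.112 and 0.546 CPM. Per kilobase and as a mean over the 22 libraries, the common forms stood far above their partners: Cox4i1 had 173 CPM and Cox4i2 0.121, Cox6a1 had 333.8 and Cox6a2 0.178, Cox6b1 had 263 and Cox6b2 0.979, Cox8a had 206 and Cox8b 0.345, and Ndufa4 had 241 and Ndufa4l2 0.713. Cox7a2 had 114 and Cox7a2l 72.3, against 2.24 for Cox7a1. Cox4i2 was at most 0.34 CPM in any library. Cox6a2 reached 1.74 CPM and Cox8b 0.717 CPM in the sixth KO library of 8 weeks, against at most 0.0864 CPM and 0 in the other 9 libraries of that age. That library also had 154.8 CPM of 10 muscle markers, against 0.3 to 0.8 CPM in the other 9, and the part of muscle RNA in these values was not tested. Cox8b was at 0 in all 6 libraries of 4 weeks and had 0.034 to 0.75 CPM in those of 20 months. There, its highest values, 0.55 CPM in WT library 3 and 0.75 CPM in KO library 3, stood beside 45.2 and 27.7 CPM of 6 adipose markers, against 0 to 9.82 CPM in the other 4 libraries and at most 0.885 CPM at the younger ages. The part of adipose RNA was not tested. Cox7a1 was at 0.68, 0.69, 0.88 and 0.43 CPM in WT livers of 8 weeks and 1.36, 2.09 and 2.21 CPM at 20 months, and rose between them (1.44 ± 0.31; edgeR adjusted p = 0.00555). Ndufa4l2 stayed at or below 1.43 CPM in every library, and in WT livers it also rose from 8 weeks to 20 months (1.11 ± 0.36, edgeR adjusted p = 0.0315). It shares bases with Shmt2 on the opposite strand, and the part of reads from Shmt2 in these low values was not tested. Cox6b2 fell in WT livers from 4 to 8 weeks (-4.07 ± 0.31, edgeR adjusted p = 4.4e-06). Its WT counts were 22 to 28 per library at 4 weeks and 4 to 10 at 8 weeks. Adult liver also expresses 3 genes for the same ring subunit of ATP synthase. Per kilobase, Atp5g3 had a mean of 163.0 CPM over the 22 libraries, Atp5g1 10.8 and Atp5g2 1.04, and none of them passed between KO and WT at any age.

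Promoter sequence from the RefSeq table (GRCm38.p6) was matched by symbol for 81 of the 100 genes, with 86 start sites. The motif GCGCANGCG, a form of the NRF1 site, lay on either strand of the 250 bases before 18 of these 86 starts (20.9%), against 5.16% of all 32817 starts. CCGGAAG, the core bound by the ETS family to which GABP belongs, lay before 16 (18.6%) against 6.9% of all. AAGATGGCG, a form of the YY1 site, lay before 1, against 0.603%, and TCAAGGTCA, a form of the ERR site, before 1, against 0.387%. The windows of these genes held a median of 56.8% G and C against 52.4% for all, and the part of base content was not tested. A start site with overlapping matches counts once. The bases before the start of Ndufaf4 and Cox6b2, called in opposite directions at 4 weeks, and of Atp5l, with the smallest adjusted p of the fall from 4 to 8 weeks, are shown for comparison, 5′ to 3′ on the strand of the gene and ending at the base before the start. Capitals mark the NRF1 form, met in Ndufaf4 (chr4:24897933-24898082, plus strand) and Atp5l (chr9:44920743-44920992, minus strand). It is not in the bases of Cox6b2 shown (chr7:4753095-4753194, minus strand). The stretches differ in length, with 150 bases for Ndufaf4, 250 for Atp5l and 100 for Cox6b2. The full 250 bases before Cox6b2 held 0 matches. The last bases shown for Atp5l overlap the antisense gene Gm30934.
Ndufaf4: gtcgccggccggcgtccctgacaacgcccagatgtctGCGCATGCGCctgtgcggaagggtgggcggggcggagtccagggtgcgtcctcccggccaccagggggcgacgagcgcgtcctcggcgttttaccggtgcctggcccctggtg
Atp5l: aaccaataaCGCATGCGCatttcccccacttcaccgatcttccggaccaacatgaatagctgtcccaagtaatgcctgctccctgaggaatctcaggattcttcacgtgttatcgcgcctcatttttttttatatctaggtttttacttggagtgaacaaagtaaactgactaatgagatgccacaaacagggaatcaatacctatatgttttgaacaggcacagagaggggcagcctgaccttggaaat
Cox6b2: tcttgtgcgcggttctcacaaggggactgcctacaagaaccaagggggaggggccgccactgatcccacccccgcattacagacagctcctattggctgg
The genes with the NRF1 form before a start were 17, and they included Sdha, Sdhd, Atp5c1, Cox6a1, Ndufa5 and Uqcc2 besides those shown. A match is a description of these letters and not a site of binding.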

How the data were processed

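Liver RNA of 22 mice was analysed from 1 table of read counts per library. The deposited counts are whole reads (read pairs at 4 weeks, per the file names) per Ensembl gene, made with the aligner HISAT2 (2.0.4) and the counter HTSeq (0.6.1p1) on GRCm38, per the submitters' processing notes. The annotation release, strand setting and read filters are not given in the sources used here, and 41 of the 100 genes overlap another gene. Symbols and lengths came from GENCODE M21.

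In R 4.3.3, edgeR 4.0.16 was used with filterByExpr, TMM scaling and the 2-sided quasi-likelihood F-test on all genes of the libraries compared, with Benjamini-Hochberg adjustment and a threshold of 0.05. The SE is the size of the log2 fold change divided by the square root of F. CPM uses TMM factors of all libraries, and scores are means of log2 CPM (prior count 2). The test was also run on simulated counts of independent genes with a common dispersion for all genes. That setting lacks the shared shifts between libraries seen here, so it is no check against them. DESeq2 1.42.0, other scalings, no filter, left-out libraries, the replicate block and length-corrected offsets were alternatives. No pair of libraries of 1 group was a duplicate (chi-square per degree of freedom at least 8.34). The genes, lists and roles were chosen with earlier results of these data known. Genes are named by rule: the smallest p per comparison (with the 4 smallest given as values where fewer than 4 genes passed), a panel of 14 subunits, isoform sets, and up to 2 called genes per list; names beyond it were chosen after their values were seen.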

Additional observations from a re-analysis of the deposited data

Results flagged for a closer look

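In the 8-week groups, the lowest or highest library was checked for its gap to the nearest other library. Over 98 such checks, 3 gaps were past Dixon's limit, fewer than the about 1 in 20 that chance alone gives. The ATP synthase score of the first WT library was 5.91, against 5.99 to 6.01 in the other 3 (mean log2 CPM). Atp5s was at 7.59 CPM in the first KO library, against 2.85 to 4.6 CPM in the other 5. Cox6b2 was at 0.411 CPM in the third KO library, against 0.158 to 0.216 CPM in the other 5.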

How the results depend on the processing

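With 1 library left out at a time, the 4-week comparison of KO with WT gave 0 to 16 higher and 0 to 1 lower genes and a median log2 fold change from -0.082 (without the third KO library) to 0.31 (without the first). The 8-week median ran from -0.087 to -0.015, and was -0.10 with scaling by library totals. The 20-month median ran from -0.052 to 0.35. Length-corrected offsets, chosen after seeing the data, gave 2 lower genes at 4 weeks beside 2 higher. With the replicate block, 1 gene was higher and 0 lower at 4 weeks, and the counts at 8 weeks and 20 months stayed at 0. Deviations of same-numbered WT and KO libraries correlated at -0.07, 0.02 and 0.01 at 4 weeks and at 0.44, 0.03 and 0.46 at 20 months. At 8 weeks the values were 0, -0.16, 0.07 and -0.33. Differently numbered libraries ran from -0.5 to 0.28 at 20 months. With so few libraries per group, these values cannot decide whether a number pairs animals, and the labels do not say.

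For the difference between 8 and 4 weeks, DESeq2 called 1 gene lower, and leaving out 1 library moved the median from -0.30 to 0.072. For 20 months against 4 weeks, upper-quartile scaling called 1 higher and 1 lower, DESeq2 2 higher and 3 lower, and leaving out 1 library gave 0 to 2 higher and 0 to 1 lower. For WT livers of 8 against 4 weeks, the median was -0.88 with library totals (1 gene higher), -1.03 with no filter, -0.56 with length-corrected offsets (2 higher) and -1.18 to -1.06 with 1 library left out. For 20 months against 8 weeks, length-corrected offsets gave 38 higher, 4 lower and a median of 0.29, and leaving out 1 library gave 0 to 5 lower. The cause of these shifts was not tested. Depth at 4 weeks limits rare genes such as Cox6b2, at 28 counts or fewer per library.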
